A study of Glycine max with 12 samples.

Results

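Roots of soybean (Glycine max, cultivar Williams 82) that had met cadmium (Cd) without any added bacterium were compared with control roots. The comparison used 3 Cd and 3 control libraries of total root RNA, which are 6 of the 12 libraries in the series. The other 6 libraries, 3 of control roots with OP and 3 of Cd roots with OP, entered the fit of the spread and give reference levels where stated. The abbreviation OP is read from the series title as Oceanobacillus picturae, which is a bacterium. All 4 groups share the cultivar and the tissue. A label of 70 mg/L Cd stands on every sample, controls included, so no dose can be tied to the Cd group here, and neither plant age nor length of exposure is stated in the labels. Whether the libraries within a group stem from different plants is also unstated, so every p-value below measures the spread between these libraries, which may be technical. Of 49128 genes in the deposited table, 30340 had a mean of at least 1 FPKM over the 12 libraries (fragments per kilobase of transcript, scaled to library size) and were tested. A gene was called where edgeR's quasi-likelihood test gave a Benjamini-Hochberg adjusted p under 0.05 over these genes, and changes below are log2 fold changes ± SE, Cd against control. Levels are mean FPKM ± SD of 3 libraries.

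Cadmium has no known nutritional role in plants. It enters root cells through carriers for iron, manganese and zinc, binds thiols, displaces metal cofactors and disturbs electron transport, and root growth slows under it. Root cells are known to bind the metal with glutathione-derived peptides, to move it into the vacuole, and to lay down barriers in the wall and endodermis. Legume roots add the isoflavonoids of their defence chemistry and, where rhizobia are present, nodules with oxygen-binding globins.

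Total counts were 49904227 to 57693211 in the control libraries and 51768348 to 52862699 in the Cd libraries. Across genes, libraries correlated at 0.990 to 0.991 within the control group, at 0.985 to 0.987 within the Cd group and at 0.843 to 0.852 between them. Ribosomal RNA genes took 0.342 to 0.529% of counts in control and 0.296 to 0.329% in Cd libraries. Gene identifiers and chromosome positions are the deposited table's own, and its genome assembly was not named in the labels or headers.

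The change was broad, and falls outnumbered rises most at the middle sizes. Of the genes tested 76.2% were called, 11402 higher and 11730 lower with Cd, with a median change over all genes of 0.00. A call alone therefore says little about any gene group, and the counts below are of members called and changed at least 2-fold. That background is 25.0% of genes, with 8.60% at least 2-fold higher (2608 genes) and 16.4% at least 2-fold lower (4962 genes). At 8-fold or more there were 140 genes higher and 922 lower, whereas at 64-fold or more the numbers were close, 18 higher and 24 lower. Genes at least 8-fold higher had a median level of 0.788 FPKM in control and 11.8 FPKM in Cd roots, whereas those at least 8-fold lower went from 3.87 to 0.270 FPKM. Genes low only in Cd pass a minimum mean over 12 libraries more readily than genes high only in Cd. With no minimum, 4251 genes were at least 2-fold higher and 7487 lower. Larger changes were not counted without it, so its part in the 8-fold counts was not tested. The RNA pool was also more concentrated. The 10 most abundant genes of a library held 2.23 to 2.35% of summed FPKM in control libraries and 4.86 to 5.03% in Cd libraries, and 1.90 to 1.94% in the 6 libraries with OP. A mean of at least 1000 FPKM was reached by 6 genes in control and by 11 genes in Cd roots.

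**Figure D1:**
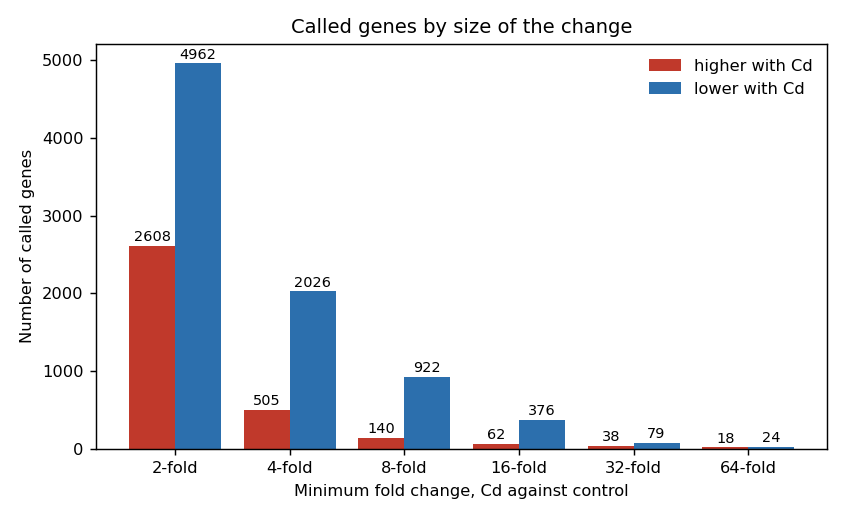
Number of called genes (vertical axis) at or above each fold change (horizontal axis), higher with Cd in red and lower in blue. At 2-fold there were 2608 genes higher and 4962 lower, at 16-fold 62 and 376, and at 64-fold 18 and 24.

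Marker genes of root tissue were present in both groups. Most were lower with Cd in the Casparian strip and water channel lists, but not in the nitrate transport list. Water channel genes summed to 4245 to 4602 FPKM in control and 1494 to 1513 FPKM in Cd libraries. Of their 35 tested members 25 were at least 2-fold lower and 0 higher. Of 15 nitrate transport genes 6 were at least 2-fold lower and 6 higher. Casparian strip genes, which build the wall band of the endodermis, stood at a summed 128 to 134 FPKM in control and 98.1 to 101 FPKM in Cd libraries. GLYMA_12G210400 carried most of this in control and nearly all of it in Cd libraries, and stood at 98.3 ± 4.34 and 98.1 ± 1.14 FPKM (log2 0.00 ± 0.0355, adjusted p = 0.997). The other 9 of 10 tested members were called and at least 2-fold lower, and 1 of them, GLYMA_02G201000, was listed at 0 in all 3 Cd libraries after 1.63 to 1.97 FPKM in control. Lists set as markers of other material were measurable. In both groups they stood above the Casparian strip sum but below the water channel sum. The lists differ in number of genes, so their sums do not measure amounts of tissue. Photosystem and chlorophyll-binding genes summed to 370.3 to 397 FPKM in control and 167 to 175 FPKM in Cd libraries, with 28 of 34 tested members at least 2-fold lower. Nutrient reservoir genes, an annotation set here as a seed marker, summed to 875 to 940.5 and 414 to 435 FPKM, with 23 of 45 at least 2-fold lower and 5 higher. The chromosome 7 members named below are also annotated to the cell wall and apoplast, so this list does not mark seed alone. Genes of oxygen carriers and nodulation, set here as a nodule marker, summed to 1327 to 1418 and 500.2 to 516 FPKM. Most of this came from the globin-type gene GLYMA_11G121800 (647 and 218 FPKM) and a sucrose synthase gene. Sucrose synthase also serves sugar breakdown, so this list does not mark nodules alone. The part of any such tissue in the results below was not tested, and in bulk RNA fewer cells of a type and less RNA per cell cannot be told apart.

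Genes that lie side by side carried the strongest rises. There were 4 runs of at least 3 neighbouring tested protein-coding genes that were all called and at least 8-fold higher, with 25 genes in all. This way of grouping was chosen after the values had been seen. The run with the most genes spans chromosome 18, 2507213 to 2549732, and holds 9, GLYMA_18G032300 to GLYMA_18G033200, which all carry annotations for fatty acid binding and for systemic acquired resistance, the immunity that spreads from an infected site. Their summed level was 182, 159 and 172 FPKM in the control libraries and 12217, 13189 and 13177 FPKM in the Cd libraries. This is 0.0355 to 0.0387% of a control library's FPKM and 2.69 to 2.89% of a Cd library's. The most abundant of them, GLYMA_18G032500, stood at 38.8, 33.0 and 37.6 FPKM in control and 2711, 3020 and 3082 FPKM in Cd libraries (log2 6.34 ± 0.0729, adjusted p = 2.44e-28). The 9 changes lay between 5.97 and 6.45 although control levels of the members ranged from 2.42 to 36.8 FPKM. The run ended sharply: the tested gene before it, GLYMA_18G032200, stood at 11.7 ± 0.543 and 12.4 ± 0.577 FPKM, and the tested gene after it, GLYMA_18G034100, at 2.06 ± 0.370 and 2.22 ± 0.310 FPKM, and neither was called.

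The rest of that annotation did not share the rise. Of 36 tested genes annotated with fatty acid binding, 11 were at least 2-fold higher and 15 at least 2-fold lower. The 11 are the 9 of the chromosome 18 run and the pair GLYMA_11G224900 and GLYMA_11G225000 on chromosome 11, which stood at 6.65 ± 0.837 and 29.9 ± 3.24 FPKM in control and at 648 ± 42.6 and 2749 ± 126 FPKM in Cd roots. The next highest member, GLYMA_14G098100, changed by 0.96, so a gap of more than 5 log2 units separates the 11 from the other members. At the low end GLYMA_08G324100 went from 14.4 to 0.941 FPKM (log2 -3.91) and the abundant GLYMA_18G190000 from 473 to 159 FPKM (log2 -1.57).

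The other raised runs were of protease inhibitors and of extracellular proteins. On chromosome 9, 8 genes from GLYMA_09G162500 to GLYMA_09G163600, annotated as inhibitors of endopeptidases, which protect proteins from digestion, rose by 5.38 to 6.53. The highest of them in Cd roots, GLYMA_09G163000, stood at 20.1, 16.3 and 16.8 FPKM in control and at 732, 788 and 781 FPKM in Cd libraries. The gene next to the run, GLYMA_09G163700, was already abundant and went from 196 ± 9.58 to 228 ± 5.81 FPKM. On chromosomes 5 and 17 there were runs of 4 genes each, and most members are annotated as extracellular and with morphogenesis. GLYMA_05G065300 (chromosome 5, 6406698 to 6408639) stood at 38.3, 30.8 and 34.8 FPKM in control and 2832, 2922 and 2762 FPKM in Cd libraries (log2 6.36 ± 0.0751, adjusted p = 3.97e-28). GLYMA_17G147400 (chromosome 17, 12147021 to 12148922) stood at 190.2, 176 and 179 FPKM in control and at 2801, 2854 and 2743 FPKM in Cd libraries (log2 3.95 ± 0.0516, adjusted p = 2.42e-27). No value of these genes overlapped between the groups, which was so for 77.2% of all genes tested. Neighbouring relatives can share reads, and how reads were divided among them is unstated, so the level of a single run member is less certain than the sum of its run.

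**Figure D2:**
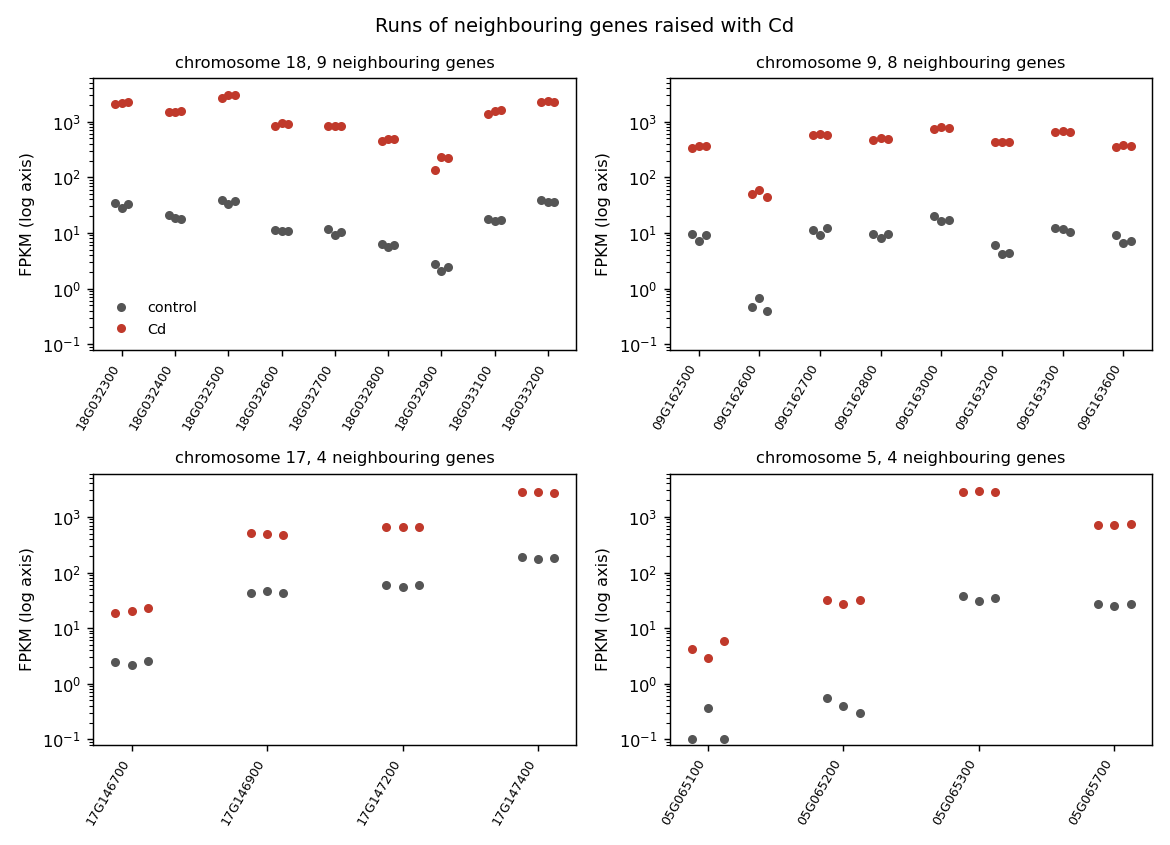
FPKM (log axis) of the 25 genes in the 4 runs raised with Cd, in gene order, with 1 point per library, control in grey and Cd in red. Values of 0 are drawn at 0.1. In the chromosome 18 run the control points lie between 2.09 and 38.8 FPKM and the Cd points between 137 and 3082 FPKM.

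Runs of neighbours also fell, 8 of them with 32 genes. On chromosomes 12 and 11, 7 genes from GLYMA_12G069300 to GLYMA_12G070000 and 4 from GLYMA_11G148100 to GLYMA_11G148700, of which 10 are annotated with secondary wall biogenesis, changed by -3.24 to -4.52. On chromosome 2 the run was of 4 Casparian strip genes, GLYMA_02G200900 to GLYMA_02G201200, and on chromosome 10 of 3 phloem development genes, GLYMA_10G185500 to GLYMA_10G185700. These runs were of low level, with no member above 13.3 FPKM in any control library. Among the more abundant were 4 nutrient reservoir genes on chromosome 7, GLYMA_07G038600 to GLYMA_07G039100, of which GLYMA_07G039100 stood at 76.2, 72.7 and 77.5 FPKM in control and at 4.0, 4.84 and 4.61 FPKM in Cd libraries.

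Genes of fermentation were far lower with Cd. Pyruvate decarboxylase, the enzyme that opens the route from pyruvate to ethanol, had 5 tested genes, all called lower and 4 of them at least 2-fold. GLYMA_13G231700 stood at 500.2, 481 and 478 FPKM in control and 45.3, 46.2 and 40.3 FPKM in Cd libraries (log2 -3.47 ± 0.0417, adjusted p = 5.63e-28). GLYMA_18G204200 went from 300.0 ± 11.4 to 31.4 ± 2.20 FPKM and GLYMA_07G153100 from 279 ± 13.3 to 45.9 ± 3.36 FPKM. The least changed, GLYMA_01G118000, went from 37.2 ± 0.595 to 21.0 ± 0.213 FPKM. Alcohol dehydrogenase completes that route, and of 16 genes annotated as zinc-dependent alcohol dehydrogenases 8 were at least 2-fold lower and 0 higher. Which of these genes serve fermentation was not tested. The most abundant of the 16 in control roots, GLYMA_06G122600, fell from 1244 ± 40.6 to 310 ± 21.0 FPKM (log2 -2.0 ± 0.0398, adjusted p = 1.39e-23). Genes annotated with the sensing of low oxygen or the response to it, most of them cysteine dioxygenases that oxidise the regulators of this response, were at least 2-fold lower in 14 of 22 cases and higher in 3. GLYMA_19G213100, an ethylene-response type transcription factor gene annotated with the response to anoxia, stood at 291, 271 and 287 FPKM in control and 80.9, 73.1 and 73.0 FPKM in Cd libraries. The 3 that rose were GLYMA_20G065900 and GLYMA_13G003700, chaperone genes of the endoplasmic reticulum (ER), and the dioxygenase gene GLYMA_12G128900.

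Levels in the other groups place this difference. In all 5 pyruvate decarboxylase genes, and in 13 of 22 low-oxygen genes, the control group had the highest mean of the 4 groups, against 16.6% of all genes tested. The alcohol dehydrogenase genes had this order less uniformly, with control highest in 6 of 16 and Cd lowest in 12 of 16. GLYMA_13G231700 stood at 69.7 FPKM in control roots with OP and at 104 FPKM in Cd roots with OP, so control roots without OP stood above all other groups. The same held for the globin-type gene GLYMA_11G121800 and for GLYMA_19G213100, at 34.0 and 95.6 FPKM with OP.

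Sugar breakdown upstream of these steps was lower too. Of 24 genes that cleave sucrose, 11 were at least 2-fold lower and 1 higher. The sucrose synthase gene SS (GLYMA_13G114000) stood at 489, 475 and 453 FPKM in control and at 74.0, 70.4 and 72.4 FPKM in Cd libraries (log2 -2.71 ± 0.0318, adjusted p = 3.76e-28), and the vacuolar invertase gene GLYMA_17G138500 went from 22.6 ± 1.04 to 0.886 ± 0.0444 FPKM. Of 107 glycolysis genes 24 were at least 2-fold lower and 3 higher, with a median of -0.30. The most abundant, the aldolase gene GLYMA_02G222400, fell from 812 ± 39.7 to 367 ± 2.96 FPKM, and GLYMA_09G007900, annotated as a phosphofructokinase, which phosphorylates fructose 6-phosphate, from 24.2 to 4.78 FPKM.

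In the respiratory chain the entry complex moved more than the later complexes. Complex I, which takes electrons from NADH, had 56 tested genes, of which 25 were at least 2-fold lower and 1 higher, with a median of -0.95. GLYMA_09G184500 stood at 145, 147 and 159 FPKM in control and 61.7, 69.1 and 58.3 FPKM in Cd libraries (log2 -1.25 ± 0.0581, adjusted p = 5.12e-16), and GLYMA_17G002300 went from 52.6 ± 2.44 to 16.2 ± 1.29 FPKM. Complexes II to IV had 36 tested genes, with a median of -0.47. Of these 31 were called lower (86.1%, against 38.7% of all genes tested), but only 2 of them at least 2-fold. The difference between these medians was not tested. In 53 of 56 complex I genes the Cd group had the lowest mean of the 4 groups, against 36.9% of all genes tested. The alternative oxidase, which passes electrons to oxygen without pumping protons, went the other way in its main responding gene. GLYMA_04G123800 stood at 11.1, 10.7 and 11.7 FPKM in control and 130, 131 and 126 FPKM in Cd libraries (log2 3.53 ± 0.0462, adjusted p = 2.42e-27). Of the family's 5 tested genes 4 were called higher, 2 of them at least 2-fold, and GLYMA_09G008500 was not called (log2 -0.14), though it was called lower under 7 of the alternatives, DESeq2 among them. The most abundant in control roots, GLYMA_08G072200, rose by less, from 85.5 ± 1.12 to 102 ± 0.602 FPKM. Of 71 tricarboxylic acid cycle genes 8 were at least 2-fold lower and 4 higher, both shares below the background. At any size 47 were called lower (66.2%) and 12 higher (16.9%), against 38.7 and 37.6% of all genes tested. The citrate synthase gene GLYMA_14G026400 was among those that rose, from 5.65 to 12.7 FPKM.

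**Figure D3:**
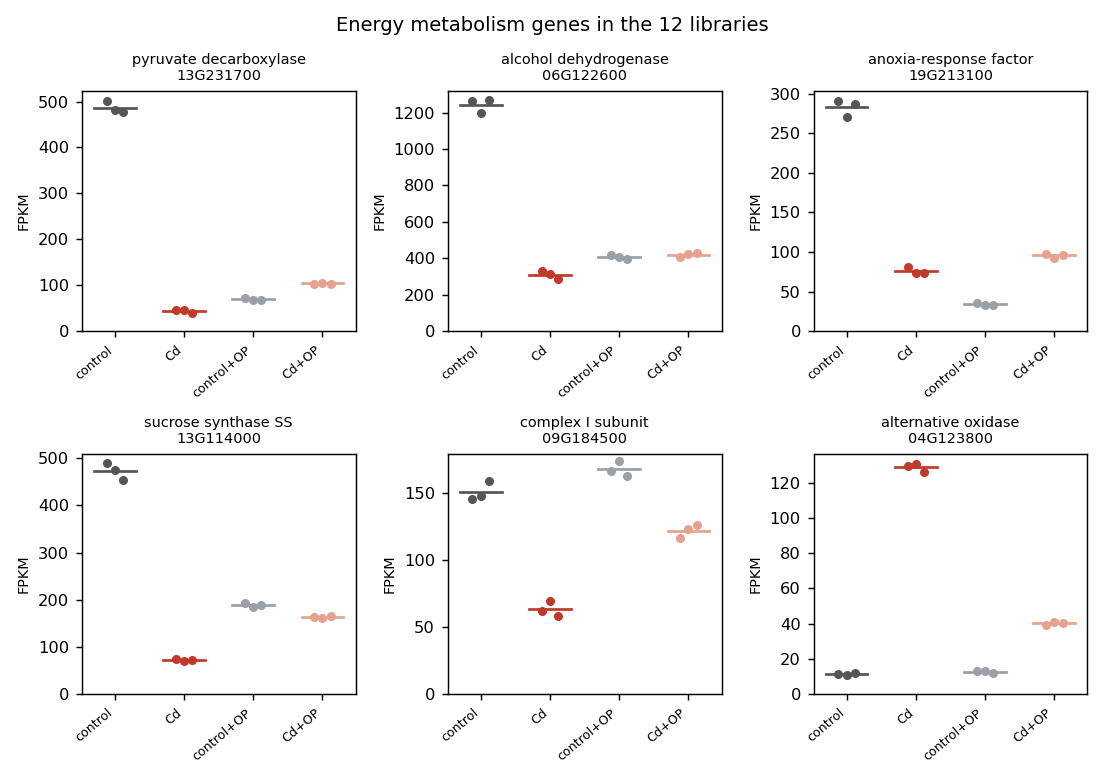
FPKM of 6 energy metabolism genes in the 12 libraries, with points for libraries and bars for group means. Control roots without OP stand highest for pyruvate decarboxylase GLYMA_13G231700 (486 FPKM against 43.9 with Cd), and Cd roots without OP stand highest for alternative oxidase GLYMA_04G123800 (129 FPKM against 11.2 in control).

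Protein quality control was higher with Cd in the endoplasmic reticulum. Of 61 genes annotated with ER stress, the state in which unfolded protein collects in that compartment, 16 were at least 2-fold higher and 2 lower (median 0.56). Of 117 heat response genes 30 were higher and 9 lower by that measure. GLYMA_03G171100, an Hsp70-type chaperone gene and the most abundant of that group, stood at 212, 210.0 and 206 FPKM in control and at 681, 691 and 688 FPKM in Cd libraries (log2 1.72 ± 0.0276, adjusted p = 1.82e-25). GLYMA_08G025900, a chaperone gene annotated to the ER lumen, stood at 15.5, 13.3 and 13.6 FPKM in control and 70.5, 69.2 and 66.8 FPKM in Cd libraries (log2 2.29 ± 0.0470, adjusted p = 2.63e-23). GLYMA_20G065900, of an ER chaperone complex, went from 5.74 ± 0.0196 to 23.6 ± 0.454 FPKM. Over all 227 protein folding genes 32 were at least 2-fold higher (14.1%) and 21 lower (9.25%), against 8.60 and 16.4% of all genes tested. At any size 94 were called higher (41.4%) and 84 lower (37.0%), near the 37.6 and 38.7% of all genes tested, with a median of 0.07.

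Genes of protein removal moved by small steps, so calls of any size are given here beside the 37.6% higher and 38.7% lower of all genes tested. The proteasome, which degrades tagged proteins, had 109 tested genes, 64 called lower and 20 higher, none of the lower ones by 2-fold, with a median of -0.24. Its core subunit gene GLYMA_03G244700 stood at 66.4, 58.5 and 58.1 FPKM in control and at 31.1, 32.6 and 36.1 FPKM in Cd libraries. The activator gene GLYMA_18G071500 was the member with the highest rise among those with a mean of at least 5 FPKM over the 12 libraries, at 12.8 ± 0.684 and 28.4 ± 1.03 FPKM. Autophagy genes, which serve the delivery of cell parts to the vacuole, were called higher in 59 and lower in 19 of 110 cases, with 5 and 1 at least 2-fold. Ribosome biogenesis genes were called higher in 135 and lower in 54 of 256 cases, and only 10 and 5 of them at least 2-fold. Of 407 small noncoding RNA genes only 71 reached the minimum mean, to which the Cd libraries contribute. Of these 71, 45 were at least 2-fold higher and 1 lower. Their median was 1.40, and 0.86 at lowest under the alternatives. In 48 of the 71 the Cd group had the highest mean of the 4 groups (67.6%, against 32.55% of all genes tested). Some may have passed the minimum through that group alone, which can raise the share. Over all noncoding genes tested, ribosomal RNA included and with the same minimum, 137 of 324 were at least 2-fold higher and 5 lower. Among them snoZ152 (ENSRNA050030284), a small nucleolar RNA, stood at 9.34, 6.86 and 10.6 FPKM in control and at 24.0, 29.6 and 26.3 FPKM in Cd libraries. 

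Cell division genes were lower in their executing parts. Of 108 microtubule motor genes 64 were at least 2-fold lower and 4 higher (median -1.59), and in 88 of them the Cd group had the lowest mean of the 4 groups. The kinesin gene GLYMA_03G197300 stood at 7.12, 6.62 and 6.71 FPKM in control and 0.382, 0.573 and 0.589 FPKM in Cd libraries (log2 -3.72 ± 0.114, adjusted p = 1.04e-19). Of 58 genes of cyclins and kinase regulators, which time the cell cycle, 26 were at least 2-fold lower and 1 higher. The mitotic cyclin genes GLYMA_03G123600 and GLYMA_19G127200 went from 18.8 ± 1.42 and 17.1 ± 0.267 FPKM to 0.574 ± 0.292 and 0.658 ± 0.337 FPKM. DNA replication had 52 of 137 genes at least 2-fold lower and 3 higher. Histones and other nucleosome genes had 31 of 91 at least 2-fold lower and 0 higher, but the most abundant of them, GLYMA_17G255600, stood at 475 and 547 FPKM. DNA repair, which shares members with replication, was divided, with 28 of 232 lower and 16 higher by that measure. Tubulins had 10 of 47 at least 2-fold lower and 3 higher. Their median was 0.00, and -0.35 at lowest under the alternatives, and GLYMA_05G110200 fell from 177 ± 6.39 to 78.2 ± 3.54 FPKM.

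**Figure D4:**
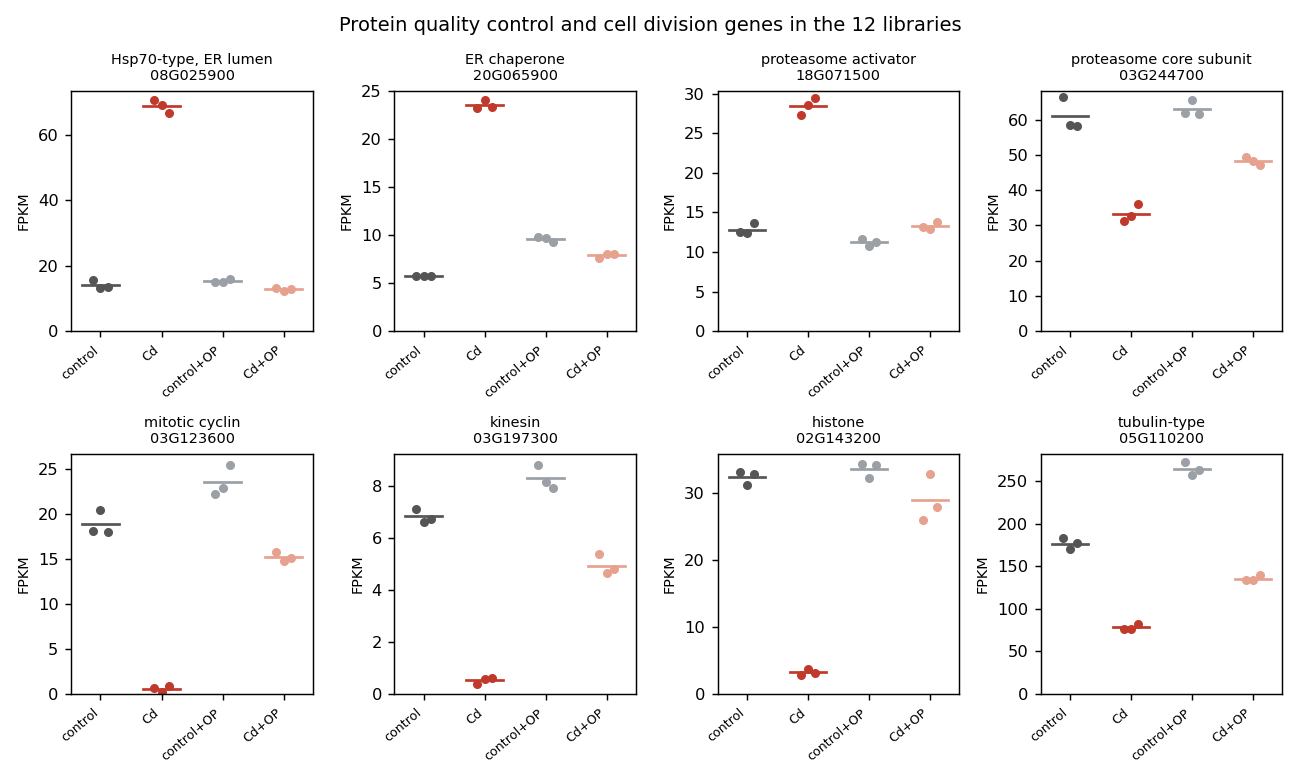
FPKM of 4 protein quality control genes (top) and 4 cell division genes (bottom) in the 12 libraries, with points for libraries and bars for group means. The Cd group without OP stands highest for the chaperone GLYMA_08G025900 (68.8 FPKM) and lowest for the cyclin GLYMA_03G123600 (0.574 FPKM).

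Genes that handle metals moved in unlike directions. Of 39 genes annotated with the response to Cd itself, 1 was at least 2-fold higher and 6 lower, below the background for rises. GLYMA_07G125600 had their strongest fall, from 65.6 ± 3.58 to 9.30 ± 0.842 FPKM. The most abundant member, GLYMA_11G208700, which carries the same annotation with oxidative stress, fell from 212 ± 10.1 to 51.7 ± 5.34 FPKM. Carriers of other metals differed by list. Of 36 manganese transport genes 7 were at least 2-fold higher and 3 lower, of 30 zinc transport genes 7 and 1, of 24 iron transport genes 6 and 4, and of 23 copper transport genes 2 and 2. GLYMA_08G181900 and GLYMA_08G076000 are both annotated with transport of iron and manganese and with storage of iron in the cell. The first stood at 5.88, 5.37 and 5.02 FPKM in control and 52.2, 55.8 and 49.1 FPKM in Cd libraries (log2 3.27 ± 0.0821, adjusted p = 1.53e-21). The second went from 4.91 ± 0.412 to 26.0 ± 2.65 FPKM. Nicotianamine binds iron and zinc for transport within the plant, and its synthase gene GLYMA_08G175400 stood at 5.56, 3.83 and 4.08 FPKM in control and 20.2, 18.6 and 22.5 FPKM in Cd libraries (log2 2.19 ± 0.113, adjusted p = 4.51e-15). GLYMA_06G133000, annotated with oligopeptide transport and iron import, went from 4.16 ± 0.181 to 12 ± 0.470 FPKM. The ferritin-type gene GLYMA_14G056800, whose product stores iron, fell from 55.1 ± 3.90 to 22.5 ± 0.235 FPKM. Among 96 ABC transporter genes 18 were at least 2-fold higher and 13 lower. The highest was GLYMA_18G263200, annotated to the vacuolar membrane, at 1.71, 1.61 and 1.93 FPKM in control and 13.9, 14.1 and 14.7 FPKM in Cd libraries (log2 3.02 ± 0.0770, adjusted p = 2.05e-21).

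Sulfur entry and thiol genes did not rise as a body. Of 41 sulfate transport and assimilation genes 16 were at least 2-fold lower and 4 higher (median -0.43), and GLYMA_19G159000, a sulfate carrier gene, went from 5.51 to 1.09 FPKM. The summed level of the list did not fall, at 689 to 726 FPKM in control and 731 to 744 FPKM in Cd libraries. The ATP sulfurylase-type gene GLYMA_10G242600, of the step that activates sulfate, rose from 97.8 ± 2.64 to 167 ± 2.01 FPKM. Of 26 cysteine synthesis genes 1 was at least 2-fold higher, the serine acetyltransferase gene GLYMA_16G118800, which makes the precursor of cysteine, at 2.35 ± 0.420 and 13.5 ± 0.551 FPKM. Glutathione transferases, which attach glutathione to reactive compounds, were near the background: 7 of 69 were at least 2-fold higher (10.1%) and 10 lower (14.5%). GLYMA_08G174900 stood at 11.6, 8.90 and 9.62 FPKM in control and 51.1, 52.1 and 49.1 FPKM in Cd libraries, whereas GLYMA_20G240300, also annotated as a dehydroascorbate reductase, fell from 67.9 ± 4.08 to 15.1 ± 0.910 FPKM.

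Enzymes that remove reactive oxygen were mostly level or lower. Of 13 superoxide dismutase genes 0 were at least 2-fold higher and 3 lower, and of 23 peroxiredoxin and glutathione peroxidase genes 1 was higher and 6 lower by that measure. The peroxiredoxin-type gene GLYMA_13G207000 went from 23.8 ± 2.01 to 3.95 ± 0.243 FPKM. In ascorbate peroxidases the membrane-annotated GLYMA_11G078400 went from 11.2 ± 1.38 to 0.960 ± 0.145 FPKM (log2 -3.53 ± 0.138), and the abundant GLYMA_12G073100 stood at 310.0 ± 9.58 and 313 ± 4.01 FPKM, not called (adjusted p = 0.595). Some members rose: the ascorbate peroxidase gene GLYMA_06G114400 from 21.0 ± 2.43 to 41.6 ± 1.40 FPKM, and the superoxide dismutase gene GLYMA_10G193500 from 69.2 ± 2.31 to 101 ± 0.428 FPKM. Of 4 catalase genes 3 were called higher, against 37.6% of all genes tested, 0 of them at least 2-fold. The other was at least 2-fold lower. CAT4 stood at 19.6 ± 1.23 and 35.5 ± 0.678 FPKM and CAT3 at 54.3 ± 1.74 and 26.8 ± 1.83 FPKM.

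Most laccase genes and many pectinesterase genes were lower, but the summed laccase level was not. Laccases join lignin precursors in the wall, and 14 of their 17 tested genes were at least 2-fold lower and 2 higher. Levels in the family were unequal: GLYMA_18G193400 rose from 17.6 ± 0.455 to 68.7 ± 3.57 FPKM, while GLYMA_07G134100 stood at 1.40 ± 0.219 and 0.0579 ± 0.0819 FPKM. With a minimum mean of 5 FPKM the family's median turned from -3.20 to 1.85, and the family's summed level was 78.1 to 81.6 FPKM in control and 96.8 to 107 FPKM in Cd libraries. Pectinesterases, which change the stiffness of pectin, had 22 of 44 genes at least 2-fold lower and 6 higher. The most abundant, GLYMA_01G240300, fell from 497 ± 8.73 to 241 ± 6.62 FPKM, and GLYMA_03G029100 stood at 1.62, 1.39 and 1.72 FPKM in control and 20.8, 20.2 and 23.1 FPKM in Cd libraries. Cellulose synthases had 14 of 36 at least 2-fold lower and 3 higher, with GLYMA_01G232500 rising from 20.5 ± 0.893 to 68.5 ± 3.16 FPKM and GLYMA_09G051100 falling from 13.8 ± 1.08 to 0.656 ± 0.0423 FPKM. Their median was -0.38, and 0.20 with a minimum mean of 5 FPKM. The xyloglucan transferase gene GLYMA_13G095000, of a family that cuts and rejoins wall chains, rose from 55.6 ± 3.15 to 197 ± 2.80 FPKM.

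The entry to phenylpropanoids was higher and the sterol route lower. Phenylalanine ammonia-lyase opens the route to lignin and isoflavonoids. Of its 10 annotated genes 8 were called higher, 3 of them at least 2-fold, and the 2 called lower are also annotated as tRNA ligases. GLYMA_13G145000 stood at 114, 113 and 113 FPKM in control and 236, 237 and 239 FPKM in Cd libraries (log2 1.07 ± 0.0290, adjusted p = 7.83e-21). Further down, 14 of 59 flavonoid and isoflavonoid genes were at least 2-fold higher and 11 lower. The isoflavonoid hydroxylase gene GLYMA_09G049200 went from 1.98 ± 0.207 to 11.5 ± 0.815 FPKM. Of 31 sterol synthesis genes, whose products set membrane properties and feed brassinosteroids, 18 were at least 2-fold lower and 1 higher (median -1.43). The squalene monooxygenase gene GLYMA_06G049500 stood at 7.11, 6.79 and 6.91 FPKM in control and 1.08, 1.32 and 1.43 FPKM in Cd libraries, and the sterol reductase gene GLYMA_12G028300 went from 15.3 ± 0.350 to 3.44 ± 0.279 FPKM. Of 9 triterpene genes 7 were at least 2-fold lower and 0 higher. UDP-glycosyltransferases, which attach sugars to such compounds, had 47 of 134 at least 2-fold lower and 6 higher.

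Polyamine and proline genes had strong movers with no common direction over the lists. Ornithine decarboxylase makes putrescine, and its gene GLYMA_04G020200 stood at 129, 121 and 123 FPKM in control and 15.4, 16.0 and 16.0 FPKM in Cd libraries (log2 -2.97 ± 0.0393, adjusted p = 3.00e-27). The genes of the next steps, which turn putrescine into spermidine and spermine, rose: S-adenosylmethionine decarboxylase GLYMA_01G071300 from 111 ± 4.38 to 304 ± 4.90 FPKM and spermidine synthase GLYMA_04G237300 from 5.26 ± 0.264 to 14.4 ± 0.427 FPKM. Over the 36 polyamine genes 4 were at least 2-fold higher and 6 lower. Of 10 proline synthesis genes 1 was at least 2-fold higher, GLYMA_18G188000, which codes for the enzyme of the first steps from glutamate, at 0.379, 0.278 and 0.0954 FPKM in control and 7.96, 8.03 and 8.48 FPKM in Cd libraries (log2 4.98 ± 0.208, adjusted p = 5.66e-17).

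Hormone genes moved in both directions. In ethylene synthesis the ACC synthase gene ACS1 rose from 8.39 ± 0.151 to 18.3 ± 0.750 FPKM, and the ACC oxidase gene GLYMA_09G008400, of the last step, fell from 93.4 ± 6.68 to 39.4 ± 2.09 FPKM. In ethylene signalling 13 of 79 genes were at least 2-fold higher and 15 lower. Among gibberellin genes, the gibberellin 3-beta-dioxygenase gene GLYMA_08G208300, of the activating step, stood at 1.45, 1.58 and 1.81 FPKM in control and 18.8, 19.4 and 19.5 FPKM in Cd libraries, and the 2-beta-dioxygenase gene GLYMA_15G248400, of the inactivating step, at 15.7, 14.6 and 14.2 and at 1.25, 1.21 and 1.16 FPKM (log2 3.58 ± 0.127 and -3.61 ± 0.146). These were the extremes of 40 gibberellin genes, of which 2 were at least 2-fold higher and 6 lower. Genes annotated with binding of abscisic acid, the drought hormone, had 9 of 38 at least 2-fold higher and 3 lower. Whether any of them codes for a receptor of the hormone was not tested. GLYMA_09G040400 stood at 12.1, 10.8 and 13.1 FPKM in control and 567, 591 and 528 FPKM in Cd libraries, whereas the most abundant, GLYMA_17G030200, stood at 690.0 ± 29.4 and 686 ± 18.2 FPKM and was not called, except as lower under 2 alternatives. Jasmonate signalling had 27 of 75 at least 2-fold lower and 4 higher, and GLYMA_07G150900, annotated as a dioxygenase and with jasmonic acid hydrolase, fell from 141 ± 3.93 to 19 ± 1.41 FPKM. The salicylic acid regulators GLYMA_03G232400 and GLYMA_03G232500, which are neighbours, rose from 21.1 ± 0.530 to 68.4 ± 1.70 and from 3.42 to 16.6 FPKM. Auxin signalling had 68 of 267 at least 2-fold lower and 21 higher, and its highest member, GLYMA_19G076800, is also annotated with amino acid transport and went from 5.23 ± 0.134 to 41.4 ± 1.48 FPKM.

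Nutrient carriers moved in unlike directions. Of 64 potassium transport genes 9 were at least 2-fold higher and 5 lower (median 0.43). At any size 40 were called higher (62.5%) and 17 lower (26.6%), against 37.6 and 38.7% of all genes tested. The most abundant, GLYMA_19G263100, rose from 52.9 to 86.6 FPKM. Sugar transport had 14 of 34 at least 2-fold lower and 6 higher, with GLYMA_18G301100 at 6.07, 6.14 and 5.79 FPKM in control and 0.115, 0.387 and 0.444 FPKM in Cd libraries, and GLYMA_04G238100 at 70.5 ± 1.68 and 158 ± 4.45 FPKM. In nitrate and ammonium genes 11 of 29 were at least 2-fold lower and 7 higher. The nitrate carrier genes GLYMA_17G153300 and GLYMA_13G323800 stood at opposite ends, from 6.36 ± 0.0981 to 28.8 ± 0.366 FPKM and from 56.0 ± 2.38 to 16.8 ± 0.452 FPKM. Amino acid transport had 23 of 81 at least 2-fold lower and 4 higher.

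Transcription factors followed the background in number. Of 1247 tested, 131 were at least 2-fold higher and 186 lower, against the 8.60 and 16.4% of all genes, so their shares were close to the background. Single members went far: GLYMA_13G322100, a factor that acts in pairs, stood at 1.67, 1.77 and 1.66 FPKM in control and 33.6, 33.0 and 33.1 FPKM in Cd libraries (log2 4.28 ± 0.142, adjusted p = 4.93e-19), and GLYMA_12G227700 at 12.9, 13.3 and 10.9 and at 0.471, 0.440 and 0.552 FPKM (log2 -4.64 ± 0.193, adjusted p = 5.28e-17). Among the most abundant genes, the carbohydrate-binding gene GLYMA_09G150400 stood at 97.5 ± 2.16 FPKM in control and at 2105, 2088 and 2159 FPKM in Cd libraries (log2 4.44 ± 0.0373, adjusted p = 8.28e-31). GLYMA_04G009400, annotated with the responses to cold, water shortage and abscisic acid, rose from 727 to 1711 FPKM, and GLYMA_09G092700, a structural wall protein gene and the most abundant gene of control roots, fell from 1409 to 945.5 FPKM.

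The Cd effect was not the same where OP was present. The difference of the Cd effects with and without OP was called in 19381 of 30340 genes (63.9%). This difference contains the Cd effect without OP, so the 2 are not independent. For GLYMA_18G032500 the mean was 60.9 FPKM in control and 203 FPKM in Cd roots with OP, and the difference of effects was -4.67. For the alternative oxidase gene GLYMA_04G123800 these means were 12.6 and 40.1 FPKM, and for the chaperone gene GLYMA_08G025900 they were 15.3 and 12.9 FPKM. The glutathione transferase gene GLYMA_08G174900 went from 7.97 to 36.0 FPKM with OP, and there the difference of effects was not called.

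**Figure D5:**
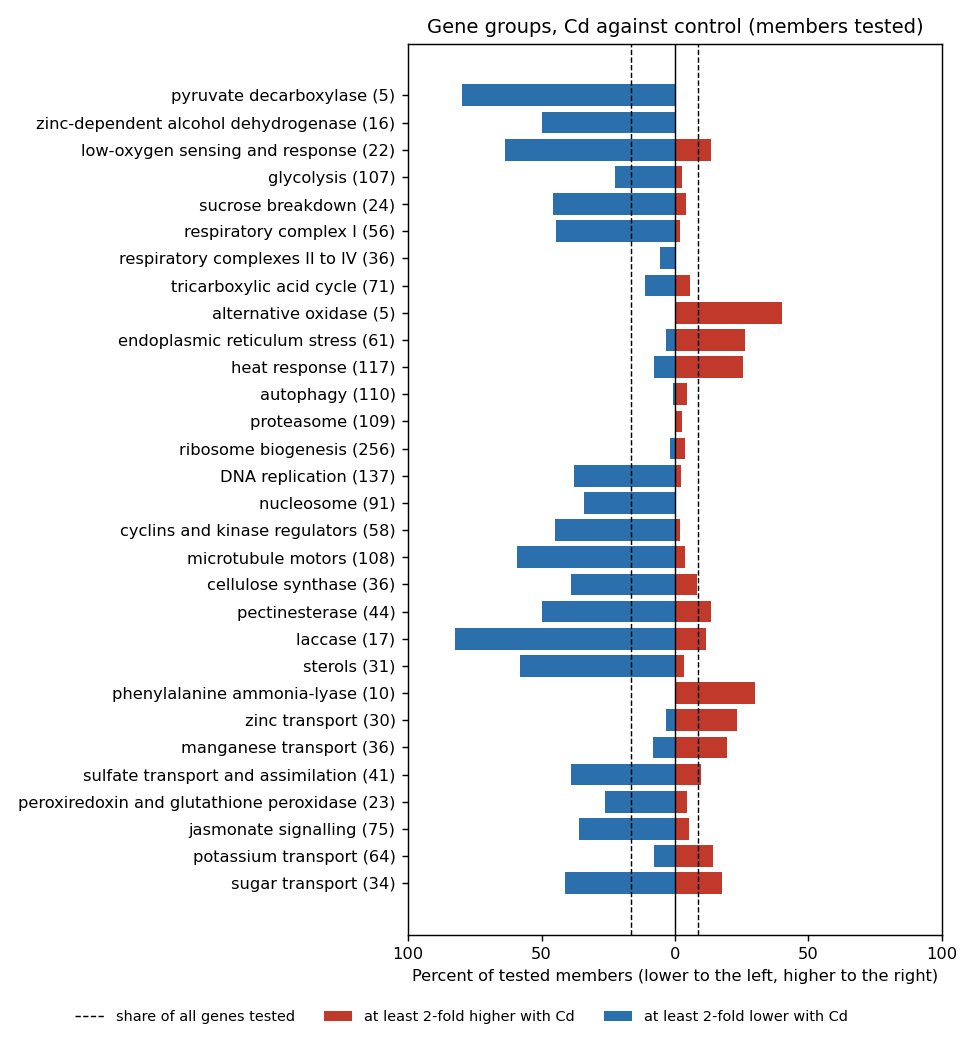
Share of the tested members of 30 gene groups that were called and at least 2-fold lower (left, blue) or higher (right, red) with Cd, with the number of members tested in brackets and dashed lines at the shares of all genes tested (16.4% lower, 8.60% higher). Microtubule motors reach 59.3% lower and ER stress 26.2% higher.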

How the data were processed

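Root RNA of 12 libraries in 4 groups of 3 was measured by sequencing, and the groups were taken from the sample labels. The table deposited by the authors holds expected counts per gene, which are whole numbers but not a plain tally of reads, since low values gather at multiples of 4, and FPKM values that the authors computed; both units are per the file headers, and the sources used here name no aligner, counter or genome build. Genes averaging 1 FPKM or more over 12 libraries were kept. Counts were scaled by TMM and fitted with edgeR 4.0.16 (R 4.3.3), 1 mean per group over all 12 libraries, with a quasi-likelihood test of Cd against control and Benjamini-Hochberg adjustment over 30340 genes at 0.05. The biological coefficient of variation was 0.0796, and 0.0324 with counts divided by 4, so SE and p depend on the count unit. The SE is the log2 fold change divided by the root of F. Tested on simulated data, this recovered 92.5% of genes changed 2-fold and called 0.053% of unchanged genes. A call in either direction counted as recovered. The changed genes were drawn only from those above a minimum mean count, so recovery of genes with few counts was not tested. The simulations changed few genes, up and down alike, whereas 76.2% of genes were called in the data. They therefore did not test TMM scaling under so broad a change. Gene groups come from the annotation in the deposited table. Named genes are the 15 highest and 15 lowest called genes averaging 5 FPKM or more, the 2 highest, 2 lowest and most abundant of each group, and the 10 most abundant of each condition; others were chosen after their values were seen, as run members, neighbours of runs, members of small groups or examples. Members and lists were chosen with earlier results of these data known. Alternatives used DESeq2 1.42.0, limma 3.58.1 on log2(FPKM + 1), other minimum levels, a minimum fold in the test, and fits without each library. Promoters and sequences were not analysed here.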

Additional observations from a re-analysis of the deposited data

Results flagged for a closer look

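The Cd effect differed with the presence of OP in 19381 of 30340 genes tested (63.9%), by a test of the difference itself in the same edgeR fit. The alternatives were not run for this count.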

How the results depend on the processing

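The counts of called genes stayed within 1.5 times of the reported ones with few exceptions. These were all counts with a minimum mean of 5 FPKM and the 2-fold counts with no minimum. The count at least 2-fold higher also left that range with limma on log2(FPKM + 1) and with a test against the minimum fold. With counts divided by 4, 23214 genes were called. With a minimum mean of 5 FPKM, 16336 genes were tested and 13201 were called, 6020 higher and 7181 lower, with 951 and 2333 at least 2-fold. With no minimum, 4251 genes were at least 2-fold higher and 7487 lower. Limma on log2(FPKM + 1) gave 1524 at least 2-fold higher, and a test against the minimum fold gave 1574. Without each replicate in turn, 21970 to 22208 genes were called, 9931 to 10047 higher and 12013 to 12161 lower, with 2332 to 2395 and 5191 to 5315 at least 2-fold. Those fits used another TMM reference library, which moved the median of all genes by about 0.05 downward. With the replicate number as a block 23046 genes were called, 11346 higher and 11700 lower. Same-numbered libraries deviated together only weakly (correlations of 0.0223, 0.0091 and 0.0266). Libraries of unlike number had correlations of -0.0285 to 0.0075, which were all lower. Whether the numbers pair the samples was not tested. With a minimum mean of 5 FPKM the median of a group turned sign for iron transport (-0.42), cellulose synthase (0.20), xyloglucan transferase (0.0265), laccase (1.85), salicylic acid (0.0589) and phosphate transport (-0.17), and with no minimum for unidimensional cell growth (-0.46), gibberellin (-0.47) and trehalose (0.0149). The 5 FPKM setting changed both the genes tested and the TMM reference library, and their parts in these turns were not separated. GLYMA_09G008500 was called lower by DESeq2 (-0.15), with a minimum of 5 FPKM (-0.19), with only the 6 Cd and control libraries (-0.13) and in 4 fits without a replicate (-0.18 to -0.21), and GLYMA_17G030200 with a minimum of 5 FPKM (-0.06) and without Cd replicate 2 (-0.08). Promoter motifs were not run.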
